A study of Mus musculus with 3 samples.

Results

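The sarcomere genes described here encode the thin filament, the Z-disc, the M-band, the myosin light chains and a few proteins attached to them, without the myosin heavy chains. They were chosen by symbol from a list of 40 genes, and all 40 were found among the 20937 gene symbols of the count table. The counts come from RNAseq of enamel organs, taken along the whole incisor from mice 4 weeks old, with 3 libraries and 1 library per genotype. Stim1 cKO carried AmelX-iCre and 2 floxed alleles of Stim1 (Stim1 fl/fl Cre+), Stim1 HT carried the Cre with 1 floxed and 1 wild-type allele (Stim1 fl/wt Cre+), and Stim1 Ctrl carried 2 floxed alleles without Cre (Stim1 fl/fl Cre-). In the methods of the study only males were used. The Cre is driven by the amelogenin promoter and is meant to act in ameloblasts, so muscle fibres are not its target, and in bulk RNA fewer fibres and less RNA per fibre cannot be told apart. No genotype had a replicate, so nothing here measures how mice of the same genotype vary.

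In striated muscle, actin filaments wound with tropomyosin and troponin slide along myosin filaments when calcium binds troponin C. The Z-disc anchors the actin filaments through alpha-actinin, the M-band ties the myosin filaments together, and titin spans from one to the other. Most of these proteins exist as isoforms. Muscle before and shortly after birth uses cardiac and embryonic forms, and adult fibres carry either slow or fast forms. The enamel organ is an epithelium and has no sarcomeres of its own.

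The 40 genes were placed in 4 classes from general knowledge of muscle: 4 of fetal and cardiac type, 9 of slow type, 10 of fast type and 17 shared by fibre types. Tpm1, Tpm2, Tpm3, Des and Cryab are also transcribed outside striated muscle. The 40 genes held 198215 counts in Stim1 cKO against 713547 for Stim1 HT and 1091898 for Stim1 Ctrl. This was 0.922% of all counts in Stim1 cKO (95% Wilson interval 0.918 to 0.926), 3.53% for Stim1 HT (3.52 to 3.54) and 3.86% for Stim1 Ctrl (3.86 to 3.87). Such intervals take in counting error alone. The lowest count of any of the 40 genes in a library was 20, above a floor set at 3 counts.

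Total counts lay between 20216507 and 28265960 per library. The expression level of Stim1 was 72.8 CPM in Stim1 cKO against 129 for Stim1 HT and 186 for Stim1 Ctrl, where CPM is counts per 1000000 counts of the library after scaling with edgeR's TMM factors (log2 fold change -1.11, adjusted p 0.106). All 10 genes of an ameloblast list were present. Their summed levels were 4754 CPM in Stim1 cKO against 32084 for Stim1 HT and 23841 for Stim1 Ctrl, led by Amelx and Ambn. Of the 10, 7 were below both controls and 2 above, against 42.1% and 43.6% of all genes tested. Their median log2 fold change was -0.62. The 2 above both were Odam (log2 fold change 2.35) and Amtn (0.46), named after their values were seen. Over all 18702 genes tested, the median absolute log2 ratio was 0.66 between Stim1 cKO and Stim1 HT, 0.71 between Stim1 cKO and Stim1 Ctrl, and 0.33 between the controls. Stim1 cKO was therefore the library that stood apart, and every comparison of the knockout below rests on it.

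The promoters of 29 of the 40 genes were found in RefSeq sequence of GRCm38.p6, as 35 windows of 250 bases before and 50 bases after a transcription start, with 6 genes having 2 windows each. For each class the window of the gene with the most counts is shown, 5′ to 3′ on the strand of the gene. Tnnt3 has the most counts in the fast class but had no window, and Myl1 is shown in its place. Capitals mark the CArG box, which binds serum response factor, the E-box CAGCTG of the myogenic factors, the TEAD motif CATTCC and the TATA motif TATAAA, each searched on both strands. Actc1 lies at chr2:114052826-114053125 on the minus strand, Mybpc1 at chr10:88605103-88605402 on the minus strand, Myl1 at chr1:66945007-66945306 on the minus strand and Acta1 at chr8:123894726-123895025 on the minus strand.
Actc1 (fetal and cardiac actin): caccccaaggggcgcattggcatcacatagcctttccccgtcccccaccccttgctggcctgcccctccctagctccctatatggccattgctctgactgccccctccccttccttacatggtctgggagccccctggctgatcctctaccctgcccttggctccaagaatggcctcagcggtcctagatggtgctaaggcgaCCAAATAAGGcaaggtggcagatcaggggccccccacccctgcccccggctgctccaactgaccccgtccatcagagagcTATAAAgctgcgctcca
Mybpc1 (slow myosin binding protein C): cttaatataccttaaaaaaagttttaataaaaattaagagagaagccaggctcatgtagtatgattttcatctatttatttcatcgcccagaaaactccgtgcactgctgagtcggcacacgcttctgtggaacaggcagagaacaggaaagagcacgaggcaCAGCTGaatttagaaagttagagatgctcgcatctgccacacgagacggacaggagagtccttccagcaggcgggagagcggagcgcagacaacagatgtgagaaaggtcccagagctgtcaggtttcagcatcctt
Myl1 (fast essential light chain): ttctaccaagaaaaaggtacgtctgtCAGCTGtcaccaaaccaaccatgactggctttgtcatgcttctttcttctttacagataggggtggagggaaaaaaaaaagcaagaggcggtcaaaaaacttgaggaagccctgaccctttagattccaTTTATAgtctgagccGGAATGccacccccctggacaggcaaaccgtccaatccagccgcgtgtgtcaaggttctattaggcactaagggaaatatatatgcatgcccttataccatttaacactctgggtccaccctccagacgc
Acta1 (adult skeletal actin): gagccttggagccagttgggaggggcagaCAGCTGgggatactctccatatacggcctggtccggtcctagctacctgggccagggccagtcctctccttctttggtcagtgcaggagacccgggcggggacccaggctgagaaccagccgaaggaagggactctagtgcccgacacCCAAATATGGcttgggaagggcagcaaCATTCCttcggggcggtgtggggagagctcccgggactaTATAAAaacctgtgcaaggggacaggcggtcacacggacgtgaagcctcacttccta

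The CArG box stands in the windows of both actin genes, as CCAAATAAGG in Actc1 and CCAAATATGG in Acta1. Over the 35 windows, 6 held a CArG box (17.1%, against 1.63% of the 32851 promoters searched), in Acta1, Actc1, Ldb3, Myl3 and Myom1. CAGCTG stood in 16 windows (45.7%, against 16.3%), CATTCC in 9 (25.7%, against 14.7%), TATAAA in 6 (17.1%, against 13.6%) and the MEF2 site in 4 (11.4%, against 3.19%). A MEF2 site and TATAAA can overlap in their letters. Windows of one gene overlap, and a match describes the letters in the window without showing that a factor binds there.

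The sarcomere genes were lower in Stim1 cKO than in the controls, almost without exception. The level in Stim1 cKO was below both controls in 39 of 40 genes, where 42.1% of all genes tested were below both, and more than 2-fold below both controls in 33, where the share over all genes tested was 8.23%. Above both controls were 0 of the 40, where the share over all genes was 43.6%. The median log2 fold change of Stim1 cKO against the grouped controls was -2.34 over the 40 genes and -0.01 over all genes tested. The values ranged from -5.41 for Myl3 to 0.09 for Xirp2, and 39 of the 40 were negative under each scaling tried.

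Stim1 cKO was tested against Stim1 HT and Stim1 Ctrl as a group with edgeR's quasi-likelihood test, with calls made above a 2-fold difference where the adjusted p was below 0.01. Of the 40 genes, 0 were called. Over all genes tested, 0.0% were called lower and 0.0749% higher in this test. The adjusted p-values of the 40 genes in edgeR ranged from 0.0135 to 0.898, with 7 below 0.02. An unadjusted p under 0.05 with a lower level was reached by 37 of the 40 genes and by 13.4% of all genes tested. At an adjusted p under 0.05 the same test called 28 of the 40 lower, against 2.88% of all genes, and 0 higher, against 6.8%. At the stricter threshold, edgeR called 14 lower with no filter on low counts, against 1.05% of all genes, and 5 with upper-quartile scaling, against 0.0695%. DESeq2, which is named in the submitters' processing notes, called 35 of the 40 lower at that threshold, against 5.1% of the genes to which it gave an adjusted p, and 0 higher, against 6.42%. The 5 not called by DESeq2 were Lmod2, Ttn, Tcap, Tpm3 and Xirp2. The spread in both tests is that between the 2 control libraries, which differ in genotype, and no p-value here measures the spread between mice.

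**Figure D1:**
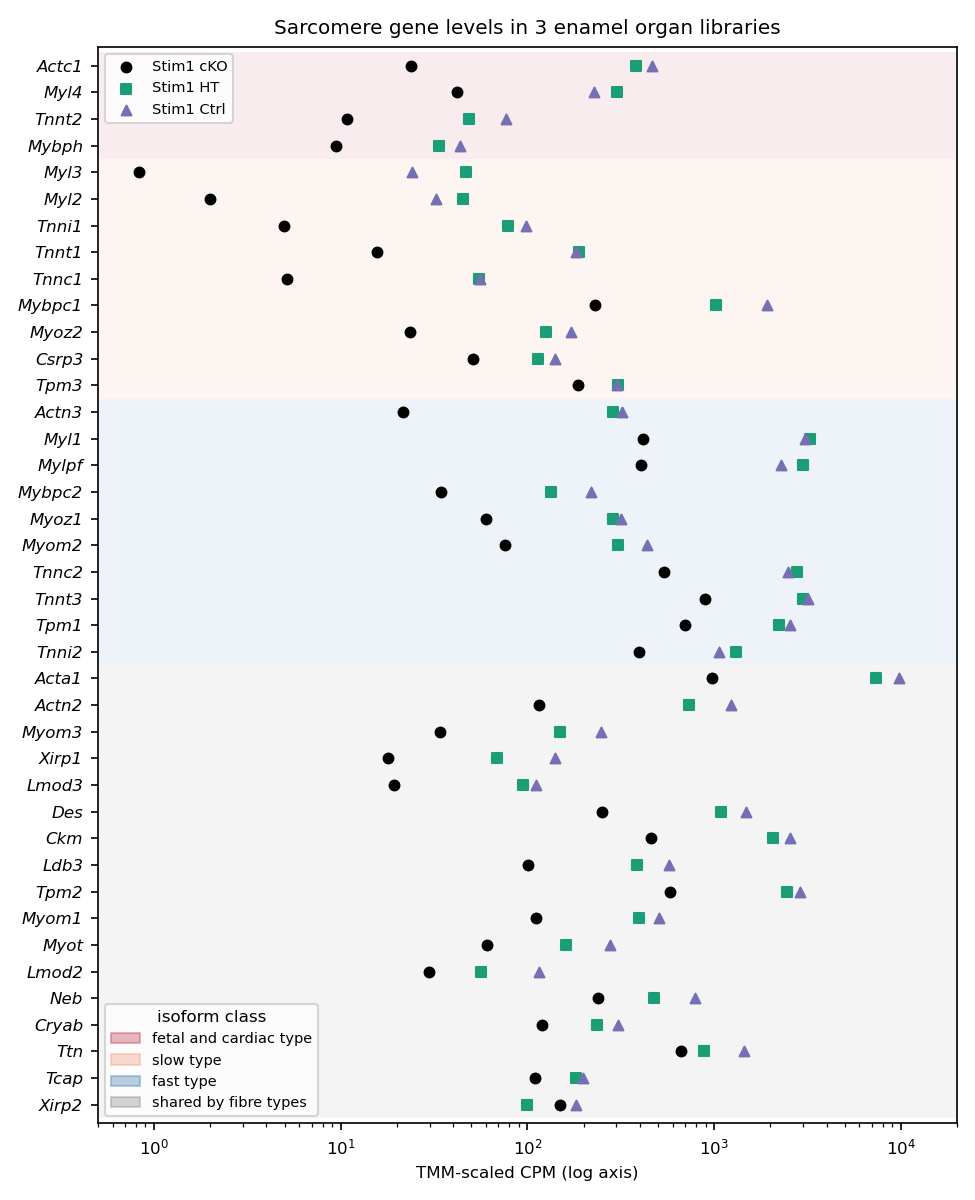
Expression level of each sarcomere gene (TMM-scaled CPM, log axis) in Stim1 cKO (circles), Stim1 HT (squares) and Stim1 Ctrl (triangles), 1 library each, with the background shading giving the isoform class. The circles lie left of both controls in 39 of 40 genes, Xirp2 being the exception.

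**Figure D2:**
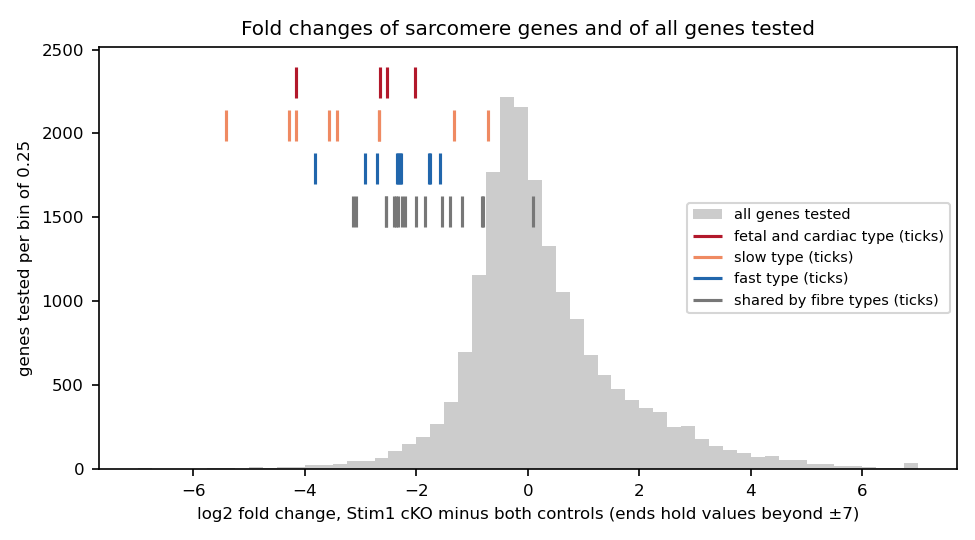
Histogram of the log2 fold change of Stim1 cKO against both controls over the 18702 genes tested (grey bars), with a tick for each of the 40 sarcomere genes, in rows and colours by class. The median of the ticks is -2.34 and that of the histogram -0.01.

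Actins form the core of the thin filament (gene positions are those of GRCm38). Acta1, the adult skeletal isoform at chr8:123891769-123894751, had the most counts of the 40 genes in every library and was at 973 CPM in Stim1 cKO against 7398 for Stim1 HT and 9791 for Stim1 Ctrl. On the log2 scale edgeR put the difference at -3.14 (adjusted p 0.0351) and DESeq2 at -3.15 (standard error 0.331). The Stim1 cKO level was far below both controls, which differed by a log2 ratio of -0.40. Actc1, the cardiac actin that developing skeletal muscle also uses, lies at chr2:114047282-114053548. Its level was 23.7 CPM in Stim1 cKO against 384 for Stim1 HT and 462 for Stim1 Ctrl, giving a log2 fold change of -4.16 (edgeR, adjusted p 0.0154). There were 2.44 counts of Actc1 for each 100 counts of Acta1 in Stim1 cKO against 5.19 for Stim1 HT and 4.72 for Stim1 Ctrl. The coding sequences of the actins are nearly identical, so the way the counting treated shared reads could move counts between these genes.

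Troponin has a calcium-binding, an inhibitory and a tropomyosin-binding subunit, each with slow and fast genes. In all 3 subunits, the slow gene differed more from the controls than the fast gene. Tnni1, slow troponin I at chr1:135779434-135810989, had 120 counts in Stim1 cKO against 1545 for Stim1 HT and 2540 for Stim1 Ctrl. These equal 4.96, 78.4 and 98.7 CPM, and the log2 fold change was -4.16 (edgeR, adjusted p 0.0135). Tnni2, fast troponin I at chr7:142441808-142444410, was at 395 CPM in Stim1 cKO against 1302 for Stim1 HT and 1066 for Stim1 Ctrl. The log2 fold change of Tnni2 was -1.58 (edgeR, adjusted p 0.0664). The number of Tnni1 counts for each 100 of Tnni2 was 1.25 in Stim1 cKO against 6.02 for Stim1 HT and 9.26 for Stim1 Ctrl. On the log2 scale, this ratio differed by -2.26 between Stim1 cKO and Stim1 HT (95% counting interval -2.53 to -1.99) and by -2.88 between Stim1 cKO and Stim1 Ctrl (-3.15 to -2.62), whereas the controls differed by -0.62.

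Tnnt1, slow troponin T, was at 15.6 CPM in Stim1 cKO against 189 for Stim1 HT and 182 for Stim1 Ctrl. Tnnt3, the fast isoform, was at 896, 2980 and 3174 CPM in the same order. The log2 fold change was -3.57 for Tnnt1 (edgeR, adjusted p 0.0146) and -1.78 for Tnnt3 (edgeR, adjusted p 0.0619). Both slow and fast troponin T were thus below the controls, and the controls were close to each other in each. Tnnt2, the cardiac isoform of early skeletal muscle, was at 10.9 CPM in Stim1 cKO against 48.5 for Stim1 HT and 76.6 for Stim1 Ctrl. Its log2 fold change of -2.53 lay between those of Tnnt1 and Tnnt3. For each 100 counts of Tnnt3 there were 1.21 of Tnnt2 in Stim1 cKO against 1.63 for Stim1 HT and 2.41 for Stim1 Ctrl, so this ratio differed about as much between the controls as between Stim1 cKO and Stim1 HT.

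Tnnc1, the slow and cardiac troponin C, was at 5.16 CPM in Stim1 cKO against 54.8 for Stim1 HT and 55.5 for Stim1 Ctrl, giving a log2 fold change of -3.42 (edgeR, adjusted p 0.0135). Tnnc2, the fast form, was at 540, 2776 and 2473 CPM in that order, giving a log2 fold change of -2.28 (edgeR, adjusted p 0.0403). The exons of Tnnc2 overlap those of Ube2c on the opposite strand over 592 of 700 bases, and whether the counting used strand is not given in the sources used here. Ube2c itself had 491 counts in Stim1 cKO against 1263 for Stim1 HT and 1664 for Stim1 Ctrl, where Tnnc2 had 13081, 54672 and 63630. Of the troponin genes, Tnnt2 and Tnni1 lie 25365 bases apart on chromosome 1, and Tnnt3 and Tnni2 lie 54426 bases apart on chromosome 7. These were the 2 pairs among the 40 genes within 200000 bases of each other.

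Tropomyosins lie along the actin filament and set where myosin can bind. Tpm1 was at 702 CPM in Stim1 cKO against 2216 for Stim1 HT and 2534 for Stim1 Ctrl. Tpm2 was at 583, 2472 and 2874 CPM, and Tpm3 at 185, 307 and 300 CPM, in the same order. Tpm3, the slow gene, had the smallest difference of the family, with a log2 fold change of -0.71 (edgeR, adjusted p 0.179), against -1.76 for Tpm1 and -2.20 for Tpm2. Here the slow gene was the one nearer to the controls, the reverse of the troponins. Non-muscle forms of Tpm1 and Tpm3 are made by many cells, and counts per gene do not separate them from the muscle forms.

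Myosin light chains stabilise the lever arm of the myosin head. Mylpf, the fast regulatory light chain, was at 404 CPM in Stim1 cKO against 2975 for Stim1 HT and 2291 for Stim1 Ctrl, giving a log2 fold change of -2.70 (edgeR, adjusted p 0.0343). Myl2, the slow and ventricular form, was at 1.98 CPM in Stim1 cKO against 45.0 for Stim1 HT and 32.3 for Stim1 Ctrl, giving a log2 fold change of -4.28 (edgeR, adjusted p 0.0154). Both controls were above Stim1 cKO in each gene, and by more in the slow one.

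Myl1, the fast essential light chain, was at 418 CPM in Stim1 cKO against 3270 for Stim1 HT and 3053 for Stim1 Ctrl. Myl3, the slow and ventricular form at chr9:110741861-110769798, had 20 counts in Stim1 cKO against 925 for Stim1 HT and 617 for Stim1 Ctrl. Myl3 showed the most negative log2 fold change of the 40 genes, -5.41 (edgeR, adjusted p 0.0189), and DESeq2 gave -5.42 (standard error 0.627). Of all genes tested, 0.0856% had a lower value. The 95% counting interval of the log2 ratio was -6.47 to -5.19 against Stim1 HT and -5.50 to -4.22 against Stim1 Ctrl. Myl4, the embryonic and atrial form, had a difference close to that of the fast gene, at 41.8 CPM in Stim1 cKO against 300 for Stim1 HT and 226 for Stim1 Ctrl. For each 100 counts of Myl1 there were 9.99 of Myl4 in Stim1 cKO against 9.19 for Stim1 HT and 7.41 for Stim1 Ctrl.

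The isoform mix was also computed within each library as a share of the family per exon length. Tnni1 made up 0.851% of troponin I in Stim1 cKO (95% interval 0.712 to 1.02, carried over from the Wilson interval of the counts), 3.96% for Stim1 HT (3.77 to 4.16) and 5.96% for Stim1 Ctrl (5.74 to 6.19). The share of Tnnt1 in troponin T was 1.83% in Stim1 cKO against 6.34% for Stim1 HT and 5.71% for Stim1 Ctrl. The share of Tnnc1 in troponin C was 0.919%, 1.88% and 2.13% in that order. Each slow troponin thus had a smaller share in Stim1 cKO than in either control. The share of Myl2 among the regulatory light chains was 0.322% in Stim1 cKO against 0.986% for Stim1 HT and 0.921% for Stim1 Ctrl, and that of Myl3 among the essential light chains was 0.243%, 1.75% and 0.985%. The share of Actc1 in the actins was 2.34%, 4.85% and 4.43%. Tpm3 went the other way, with 12.5% of the tropomyosins in Stim1 cKO against 5.79% for Stim1 HT and 4.94% for Stim1 Ctrl. Each of these shares describes 1 library, and their spread between mice is not known.

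**Figure D3:**
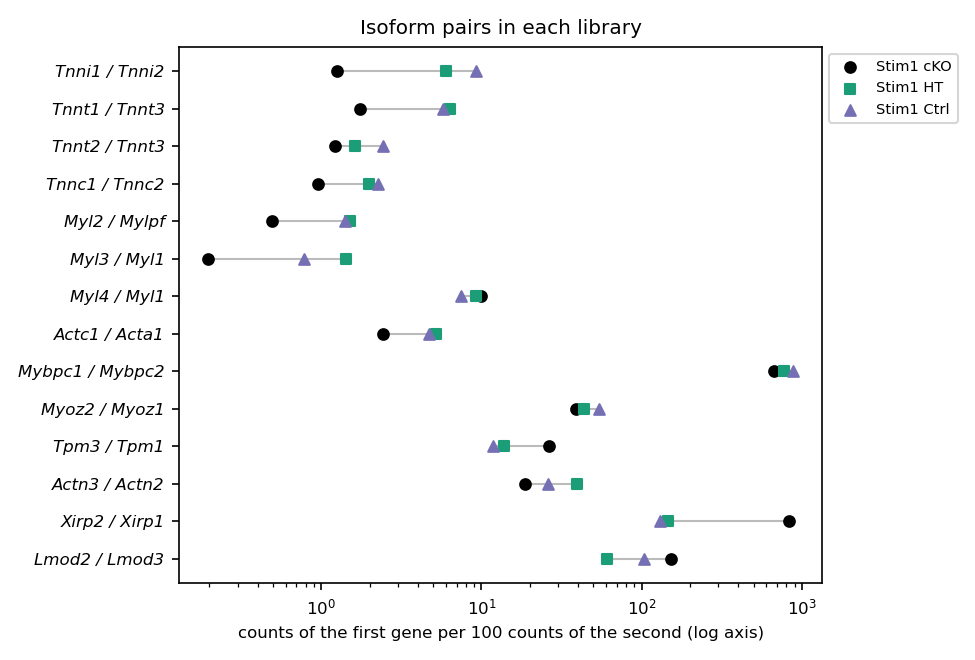
Counts of the first gene for each 100 counts of the second (log axis) in 14 isoform pairs, with Stim1 cKO as circles, Stim1 HT as squares and Stim1 Ctrl as triangles. Stim1 cKO lies left of both controls for the slow troponins, Myl2, Myl3, Actc1, Tnnt2, Mybpc1, Myoz2 and the fast Actn3. It lies right of both for Myl4, Tpm3, Xirp2 and Lmod2.

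By class, the median log2 fold change was -3.42 over the 9 slow genes, -2.59 over the 4 fetal and cardiac genes, -2.31 over the 10 fast genes and -2.20 over the 17 shared genes. The slow class was also the most varied, from -5.41 for Myl3 to -0.71 for Tpm3. Besides Tpm3, the slow genes Csrp3 (-1.32), Myoz2 (-2.66) and Mybpc1 (-2.68) were closer to the controls than the slow troponins and light chains. Among the fast genes, Actn3 stood lowest at -3.82 and Tnni2 highest at -1.58. The ranges of the classes overlap, and a difference between them was not tested.

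Of the myosin binding proteins, which sit on the thick filament, Mybpc1 was at 230 CPM in Stim1 cKO against 1025 for Stim1 HT and 1918 for Stim1 Ctrl. The controls differed by a log2 ratio of -0.90 in this gene. Mybpc2, the fast form, had a log2 fold change of -2.35 and Mybph one of -2.02, with adjusted p-values of 0.0383 and 0.0287 in edgeR. The exons of Mybph overlap those of Adora1 on the opposite strand over 1162 of 2329 bases, and Adora1 was higher in Stim1 cKO, at 1067 counts against 199 for Stim1 HT and 93 for Stim1 Ctrl. Without strand, reads of the overlap cannot be told apart.

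At the Z-disc, alpha-actinin cross-links the ends of the actin filaments. Actn2 was at 115 CPM in Stim1 cKO against 731 for Stim1 HT and 1225 for Stim1 Ctrl, giving a log2 fold change of -3.08 (edgeR, adjusted p 0.0325). Actn3, the isoform of fast fibres at chr19:4861216-4877909, was at 21.6 CPM in Stim1 cKO against 289 for Stim1 HT and 319 for Stim1 Ctrl. With a log2 fold change of -3.82 (edgeR, adjusted p 0.0154), Actn3 had the lowest value of the fast genes, and it was further below the controls than Actn2. The calsarcins Myoz1 and Myoz2, which bind calcineurin at the Z-disc, had log2 fold changes of -2.33 and -2.66. For each 100 counts of the fast Myoz1 there were 39.1 of the slow Myoz2 in Stim1 cKO against 43.9 for Stim1 HT and 54.4 for Stim1 Ctrl, so the ratio of slow to fast was nearer to the controls here than in the troponins. Ldb3 (-2.26), which holds alpha-actinin in place, and Myot (-1.84), which binds filamin and actin, were also below both controls. Tcap, the cap of titin at the Z-disc, was at 110 CPM in Stim1 cKO against 182 for Stim1 HT and 199 for Stim1 Ctrl, and Csrp3, the muscle LIM protein, at 51.1, 114 and 141 CPM.

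Ttn, the titin gene at chr2:76703980-76982547, had one of the smallest differences, at 662 CPM in Stim1 cKO against 885 for Stim1 HT and 1454 for Stim1 Ctrl. Its log2 fold change was -0.82 (edgeR, adjusted p 0.273). The Stim1 cKO level was nearer to Stim1 HT than Stim1 HT was to Stim1 Ctrl, with log2 ratios of -0.42 and -0.72. Neb, nebulin, which runs along the thin filament, was at 240 CPM in Stim1 cKO against 474 for Stim1 HT and 788 for Stim1 Ctrl, giving a log2 fold change of -1.40 (edgeR, adjusted p 0.111). The leiomodins nucleate actin and set filament length. Lmod3 was at 19.3 CPM in Stim1 cKO against 94.1 for Stim1 HT and 111 for Stim1 Ctrl, a log2 fold change of -2.41, while Lmod2 had one of -1.54. Lmod2 was at 29.5 CPM in Stim1 cKO, and its level was nearer to the 56.8 CPM of Stim1 HT than to the 115 CPM of Stim1 Ctrl.

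The Xin repeat genes were split within their family. Xirp1 was at 17.9 CPM in Stim1 cKO against 68.6 for Stim1 HT and 140 for Stim1 Ctrl, giving a log2 fold change of -2.54 (edgeR, adjusted p 0.0481). Xirp2 (chr2:67446002-67526614) was at 150 CPM in Stim1 cKO, between 99.8 for Stim1 HT and 182 for Stim1 Ctrl. Its log2 fold change of 0.09 (edgeR, adjusted p 0.898) was the only positive one, and against Stim1 Ctrl alone it changed sign to -0.29. There were 835 counts of Xirp2 for each 100 of Xirp1 in Stim1 cKO against 145 for Stim1 HT and 130 for Stim1 Ctrl. Both proteins bind actin at the ends of muscle fibres and at damaged or remodelling sites.

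The M-band genes Myom1 (-2.02), Myom2 (-2.29) and Myom3 (-2.55) had similar log2 fold changes, each with an adjusted p between 0.0348 and 0.0381 in edgeR. Des, the intermediate filament that links Z-discs, had 6069 counts in Stim1 cKO against 21453 for Stim1 HT and 38122 for Stim1 Ctrl (log2 fold change -2.36). Ckm, the creatine kinase bound at the M-band, was at 460 CPM in Stim1 cKO against 2060 for Stim1 HT and 2542 for Stim1 Ctrl. The small heat shock protein gene Cryab, which protects desmin and titin, was at 120, 236 and 307 CPM, giving a log2 fold change of -1.18 (edgeR, adjusted p 0.0872). Its exons overlap those of Hspb2 on the opposite strand over 252 bases. In all, the exons of 11 of the 40 genes overlap another annotated gene.

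**Figure D4:**
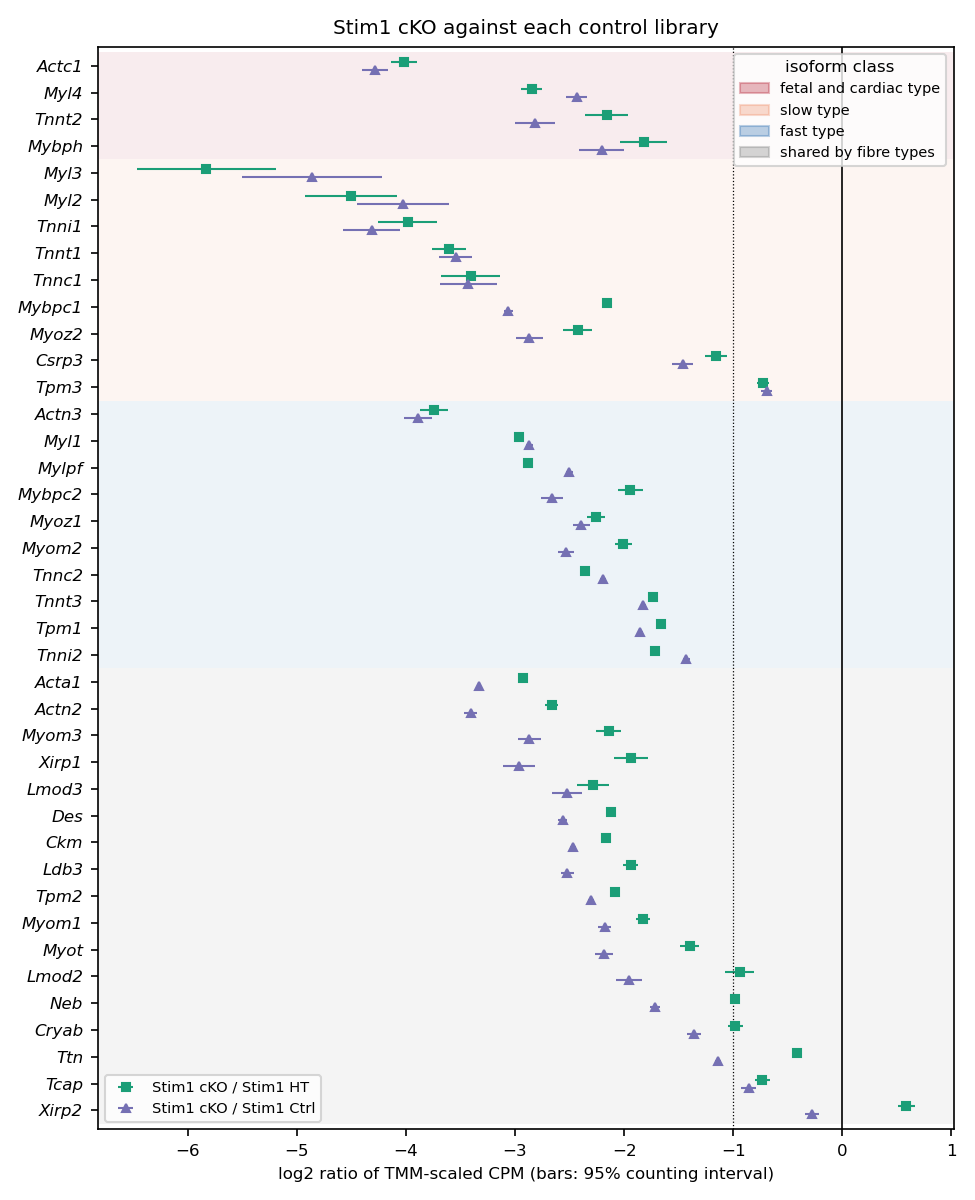
Log2 ratio of TMM-scaled CPM in Stim1 cKO to Stim1 HT (squares) and to Stim1 Ctrl (triangles) for each sarcomere gene, with 95% counting intervals that leave out the spread between mice, and the dotted line at a 2-fold difference. All points except that of Xirp2 against Stim1 HT lie below 0, and the slow genes reach the lowest values, down to -5.83 for Myl3.

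The order of the genes by level per exon length also differed between libraries. Acta1 was the most abundant of the 40 genes per length in both controls, with 5116 CPM per kilobase in Stim1 HT and 6771 in Stim1 Ctrl. In Stim1 cKO it was at 673 CPM per kilobase, below Tnnc2 at 772 and Tnnt3 at 768. Tnnc2 was at 3965 CPM per kilobase for Stim1 HT and 3532 for Stim1 Ctrl, and Tnnt3 at 2556 and 2722. Acta1 held 11.9% of the counts of the 40 genes in Stim1 cKO against 20.4% for Stim1 HT and 23.1% for Stim1 Ctrl.

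Between the controls the sarcomere genes differed less. The log2 ratio with Stim1 HT over Stim1 Ctrl had a median of -0.32 over the 40 genes and 0.0046 over all genes tested. Stim1 HT was below Stim1 Ctrl in 31 of the 40 genes, against 49.7% of all genes tested. It was more than 2-fold below in 2 of them, Xirp1 (-1.03) and Lmod2 (-1.02), against 3.64% of all genes, and more than 2-fold above in 0, against 9.82%. With 1 library each, this comparison has no test. The highest ratio was 0.97 for Myl3, and Myl2 (0.48), Myl4 (0.41), Mylpf (0.38) and Tnni2 (0.29) were also higher in Stim1 HT.

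These ratios moved with transcript length. Across the 40 genes, the log2 ratio of the controls (Stim1 HT over Stim1 Ctrl) had a Pearson correlation of -0.571 and a Spearman correlation of -0.681 with the log2 exon length, as a description of genes that share the same libraries. Over the 18490 other genes with a known length the values were -0.223 and -0.394. The 8 sarcomere genes with at least 5000 bases of exon had a median log2 ratio of -0.72, and the other 32 one of -0.23. The log2 fold change of Stim1 cKO against both controls had correlations of 0.408 (Pearson) and 0.284 (Spearman) with length over the 40 genes, to which Ttn, Neb and Xirp2 contribute the longest transcripts. Over the other genes these were -0.0353 and -0.00259. The part that length plays in these differences was not tested.

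**Figure D5:**
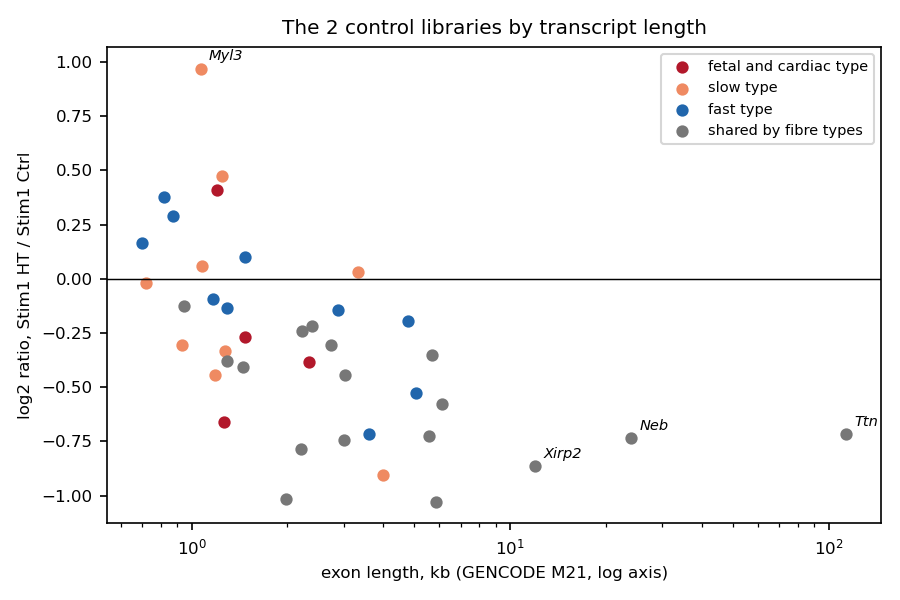
Log2 ratio, Stim1 HT over Stim1 Ctrl, for each sarcomere gene against its exon length in kilobases (log axis), coloured by isoform class. The points reach from -1.03 for Xirp1 to 0.97 for Myl3, and the 3 longest genes, Xirp2, Neb and Ttn, at -0.86, -0.73 and -0.72.

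Other genes of the sarcomere, in a list of 32 that are not among the 40, were also lower in Stim1 cKO, though by less. Of the 31 tested, 29 were below both controls (42.1% of all genes tested) and 19 more than 2-fold below both (8.23%), and the median log2 fold change was -1.50. In edgeR 0 were called, with 23 lower and 1 higher at an unadjusted p under 0.05 (13.4% and 18.5% of all genes). DESeq2 called 18 lower and 1 higher (5.1% and 6.42%). Fhl1, a LIM protein of the sarcomere, was at 299 CPM in Stim1 cKO against 695 for Stim1 HT and 952 for Stim1 Ctrl, and Flnc, the filamin of the Z-disc, at 76.9, 318 and 547 CPM. The 2 genes above both controls were Tnni3, cardiac troponin I, and Ankrd23, which were named after their values were seen. Tnni3 had 316 counts in Stim1 cKO against 58 for Stim1 HT and 55 for Stim1 Ctrl, giving a log2 fold change of 2.36 (edgeR, adjusted p 0.0455), so the troponin I genes did not all go the same way. Of 8 myosin heavy chain genes, 7 were below both controls, against 42.1% of all genes. Above both was Myh4, at 473 CPM in Stim1 cKO against 318 for Stim1 HT and 29.1 for Stim1 Ctrl. It was named after its values were seen. Myh8, the perinatal form, was at 435 CPM in Stim1 cKO against 5567 for Stim1 HT and 10159 for Stim1 Ctrl, while Myh1, an adult fast form, was at 999.7, 1002 and 1882 CPM.

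Marker lists of cell types gave the following levels beside these results, where the share over all genes tested was 42.1% for below both controls, 43.6% for above both, 8.23% for more than 2-fold below both and 19.1% for more than 2-fold above both. Of 12 markers of the skeletal muscle fibre that are not among the 40 genes, 10 were below both controls and 5 more than 2-fold below both, with a median log2 fold change of -1.10 and summed levels of 2001 CPM in Stim1 cKO against 3133 for Stim1 HT and 4825 for Stim1 Ctrl. Atp2a1, the calcium pump of fast fibres, was at 779, 1321 and 2414 CPM, and Trdn, triadin, at 284, 348 and 402 CPM. Of 8 muscle stem cell and myoblast markers, 7 were below both controls, with summed levels of 52.7, 173 and 200 CPM. Myog, which drives fusion into fibres, was at 9.01, 64.0 and 60.4 CPM. Pax7 was the 1 marker above both, at 11.5, 8.12 and 9.87 CPM. Of 10 smooth muscle markers, 4 were below both controls, close to the share over all genes, and 2 above, with a median of -0.20. This list holds Des, which is one of the 40 genes, and Acta2 was at 189, 270 and 407 CPM. Of 10 cardiac markers, 8 were listed and 5 tested, of which 2 were below both controls and 3 above, 2 of these by more than 2-fold. Their median log2 fold change was 1.17, opposite in sign to that of the sarcomere genes, and their summed levels were 33.1, 12.8 and 17.4 CPM. Ryr2, the cardiac calcium release channel, was at 16.6, 1.83 and 2.10 CPM in that order (edgeR, adjusted p 0.0253). Like Tnni3, which is also on this list, Ryr2 was called higher by DESeq2. Myh6, a myosin heavy chain on the same list, went the other way. It was at 1.07, 6.55 and 11.6 CPM and was called lower by DESeq2. All 8 mesenchyme and fibroblast markers, all 5 endothelial and all 5 erythroid markers were below both controls as well, with medians of -1.18, -1.01 and -1.22. The part of tissue composition in the levels of the sarcomere genes was not tested.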

How the data were processed

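RNAseq counts of 3 enamel organ libraries were used. Per the methods of the study, reads were trimmed and filtered for quality, and STAR placed the read pairs on the mouse genome. The authors deposited raw counts per gene symbol, without normalization, and list only genes with a count in each library. The genome build, annotation, counting tool and strand setting are not given in the sources used here, and the labels and the methods name different library kits. The members and gene lists were chosen with earlier results of these data known.

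Counts of all 20937 symbols entered edgeR 4.0.16 in R 4.3.3 (filterByExpr, 18702 genes kept, TMM factors, quasi-likelihood test, Benjamini-Hochberg adjustment over all genes). Stim1 cKO was compared with Stim1 HT and Stim1 Ctrl as a group, with 1 residual degree of freedom. DESeq2 1.42.0, other scalings and filters, and leaving out a control were alternatives. The tests were first run on simulated counts. Ratios between single libraries have counting intervals only. Positions and exon lengths came from GENCODE M21 (GRCm38). All 40 members could be named, and from each other list the 2 genes with the highest mean CPM and any gene called. Not all of these are named, and some genes outside this rule are named for their direction or for an overlap with a member. The figures were drawn with matplotlib 3.10.9 in Python 3.11.15.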

Additional observations from a re-analysis of the deposited data

How the results depend on the processing

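The number of sarcomere genes called was 0 in edgeR and remained 0 with RLE or library size scaling, without mitochondrial and matrix genes, when genes averaging under 50 counts were dropped, and without a fold minimum. It was 5 with upper-quartile scaling, 14 with no filter, 28 at an adjusted p under 0.05 and 35 with DESeq2. The cause of these differences was not tested. The number more than 2-fold below both controls was 32 to 35 over the other scalings and filters. Against 1 control alone it was 33 without Stim1 Ctrl and 37 without Stim1 HT. The median log2 fold change of the 40 genes was -2.07 with library size only, which moved the median of all genes to 0.25, and -2.53 to -2.13 when 1 control was left out. With library size only, the medians were -2.33 for the fetal and cardiac, -3.16 for the slow and -2.05 for the fast class. With upper-quartile scaling they were -3.29 for slow and -2.18 for fast genes, and without genes averaging under 50 counts -3.31 and -2.20. The slow median was -3.45 with no filter and -3.49 without genes also used outside striated muscle, an alternative chosen after seeing the data. Leaving out a control gave -3.44 to -3.41 for slow genes and -2.46 to -2.13 for fast genes, and the fold change of Xirp2 reversed to -0.29 without Stim1 HT and was 0.59 without Stim1 Ctrl.

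Between the controls (Stim1 HT over Stim1 Ctrl) the median log2 ratio was -0.35 with RLE, -0.24 with upper-quartile, -0.22 with library size only, -0.33 with no filter and -0.29 without genes averaging under 50 counts. With raw counts in place of counts per length, the shares in Stim1 cKO, Stim1 HT and Stim1 Ctrl were 1.24%, 5.68% and 8.48% for Tnni1, 1.69%, 5.88% and 5.30% for Tnnt1, 0.488%, 1.49% and 1.39% for Myl2, 0.179%, 1.30% and 0.726% for Myl3, 2.38%, 4.93% and 4.51% for Actc1, and 12.6%, 6.14% and 5.26% for Tpm3. Shares per protein length were not computed. No paired analysis was possible because each genotype has 1 library. The lowest count of a sarcomere gene was 20, for Myl3 in Stim1 cKO, and its fold change has the widest counting interval.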

Other observations

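Genes of muscle energy supply and of myogenic control were measured in lists of 12 and 13 genes. These lists share genes with the marker lists above. Mb and Ckmt2 are also fibre markers, and Pax7, Myf5, Myod1 and Myog are also stem cell markers. Of the 12 energy and oxygen genes, 10 were below both controls (42.1% of all genes tested) and 5 more than 2-fold below both (8.23%), with a median log2 fold change of -1.08. In edgeR 0 were called, with 7 lower and 1 higher at an unadjusted p under 0.05 (13.4% and 18.5% of all genes), and DESeq2 called 6 lower (5.1%). Eno3, the muscle enolase, was at 254 CPM in Stim1 cKO against 811 for Stim1 HT and 772 for Stim1 Ctrl, and Ldha, a lactate dehydrogenase subunit, at 414, 639 and 675 CPM. The 2 genes above both controls were Mb and Ldhb, named after their values were seen. Mb, the oxygen store myoglobin of slow and oxidative fibres, was at 403 CPM in Stim1 cKO against 148 for Stim1 HT and 228 for Stim1 Ctrl (edgeR, log2 fold change 1.10, adjusted p 0.116).

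Of the 13 myogenic regulators, 9 were below both controls (42.1% of all genes) and 2 above (43.6%), with a median log2 fold change of -1.04. In edgeR 0 were called, with 7 lower and 1 higher at an unadjusted p under 0.05 (13.4% and 18.5% of all genes). DESeq2 called 5 lower (5.1%) and 1 higher (6.42%). Mef2c and Mef2a, which many cell types express, were at 383 and 116 CPM in Stim1 cKO, 351 and 127 CPM in Stim1 HT, and 448 and 156 CPM in Stim1 Ctrl. The 2 above both controls were Pax3 and Pax7, transcription factors of muscle precursors, named after their values were seen. Pax7 was at 11.5 CPM in Stim1 cKO against 8.12 for Stim1 HT and 9.87 for Stim1 Ctrl, and Pax3, the gene that DESeq2 called higher, at 31.8, 5.13 and 6.14 CPM (log2 fold change 2.49, adjusted p 0.0227 in edgeR and 2.8e-05 in DESeq2).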
